A study of Mus musculus with 21 samples.

Results

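The genes described here encode 42 proteins of the complement and coagulation systems that the liver makes for the blood. They were chosen by symbol from general knowledge, and their rows were found through the Ensembl identifiers of GENCODE M21 on GRCm38. Of the 42 identifiers, 41 were among the 46078 in the count table, and all 41 were among the 14370 genes that passed the filter on low counts. The identifier of the remaining gene, *Klkb1*, was not matched and plasma prekallikrein is not analysed here.

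The data were counts of poly(A) RNA from 21 mouse livers, 1 library per animal, in a cross of 2 genotypes with 3 diets. The knockout animals (KO) lack *Cse*, also written *Cth*, the gene of the enzyme that makes cysteine from cystathionine, on a mixed 129/C57BL/6 background. The comparison animals are WT in the labels, but the study's text describes its controls as heterozygous (Cse+/-), so WT is used here as a label only. All animals were males of at least 9 weeks under calorie restriction, which began with 3 days on a control diet of defined amino acids and went on for 2 days on the test diet. The test diets were the same control diet (CTR), that diet without cysteine (noCys) and that diet without tryptophan (noTrp), with the other amino acids raised in proportion in the depleted diets. The groups held 3 WT CTR, 4 KO CTR, 4 WT noCys, 3 KO noCys, 2 WT noTrp and 5 KO noTrp animals, and the deletion was present in the whole body, so an effect of the liver's own *Cse* and one of other organs cannot be told apart. Replicate numbers are those of the labels, which for KO noCys are 1, 3 and 4.

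Total counts per library ran from 8889951 to 27230852, and the 41 genes together took 3.45 to 5.39% of them. WT CTR replicate 3 stood apart with 6.55% of its counts in small and ribosomal RNA genes, where the other libraries held at most 0.292%. *Cth* stood at 225 to 263 CPM in the WT noCys libraries and 6.34 to 8.12 in KO noCys, and was called lower in KO on each diet. Values are CPM, counts scaled to equal library size after TMM, given as mean ± SD over animals, and tests are edgeR quasi-likelihood F-tests with Benjamini-Hochberg adjustment over all 14370 genes. A gene was called when its adjusted p was under 0.05. The p-values rest on the spread between animals, and the precision of a level is limited by 2 to 5 animals a group more than by depth, except for *Cfb*, which had 6 to 166 counts per library.

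Complement is a chain of plasma proteins that marks and lyses microbes. Antibody or lectins bound to a surface, or C3 by itself on the alternative route, build enzymes that split C3 and then C5, and the terminal proteins assemble on the split C5 into a pore in the membrane. Coagulation is another such chain, in which proteases, several of them made active by vitamin K dependent modification, end in thrombin, which turns fibrinogen into fibrin, while serpins, protein C with protein S, and plasmin limit or dissolve the clot. Hepatocytes make most of these proteins, and they are rich in disulphide bonds, which are formed between cysteines.

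Fewer transcripts of these genes were found in livers of KO mice without dietary cysteine than in livers of WT mice on the same diet. The adjusted p was under 0.05 for 25 of 41 genes, all 25 lower and 0 higher, and the median log2 fold change over the 41 was -0.46. Over all 14370 genes, 28.2% were called in this comparison, 13.4% lower and 14.8% higher, with a median of -0.02. The 3 KO noCys libraries all lay below the 4 WT noCys libraries for 27 of the 41 genes and above them for 0, where 18.1% of all genes lay below and 19.4% above. The largest falls were in 3 terminal pore proteins, *C9* at -3.16, *C6* at -1.82 and *C8a* at -1.48. Next were *Cfb* of the alternative route at -1.32 and *Hc*, the gene of C5, at -1.30. In bulk liver, fewer hepatocytes and less RNA per hepatocyte cannot be told apart, and the summed CPM of 7 hepatocyte markers, among them *Alb* and *Ttr*, was 52841 to 84346 in KO noCys against 108287 to 120658 in WT noCys. The 7 did not move as one: *Alb* (-1.15), *Ttr* (-1.03) and *Pck1* (-0.64) were called lower, *Apoa1* (-0.54) and *Tat* (-0.34) were not called, and *Cyp2e1* (0.09) and *Cps1* (0.03) were near 0 on the log2 scale.

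**Figure D1:**
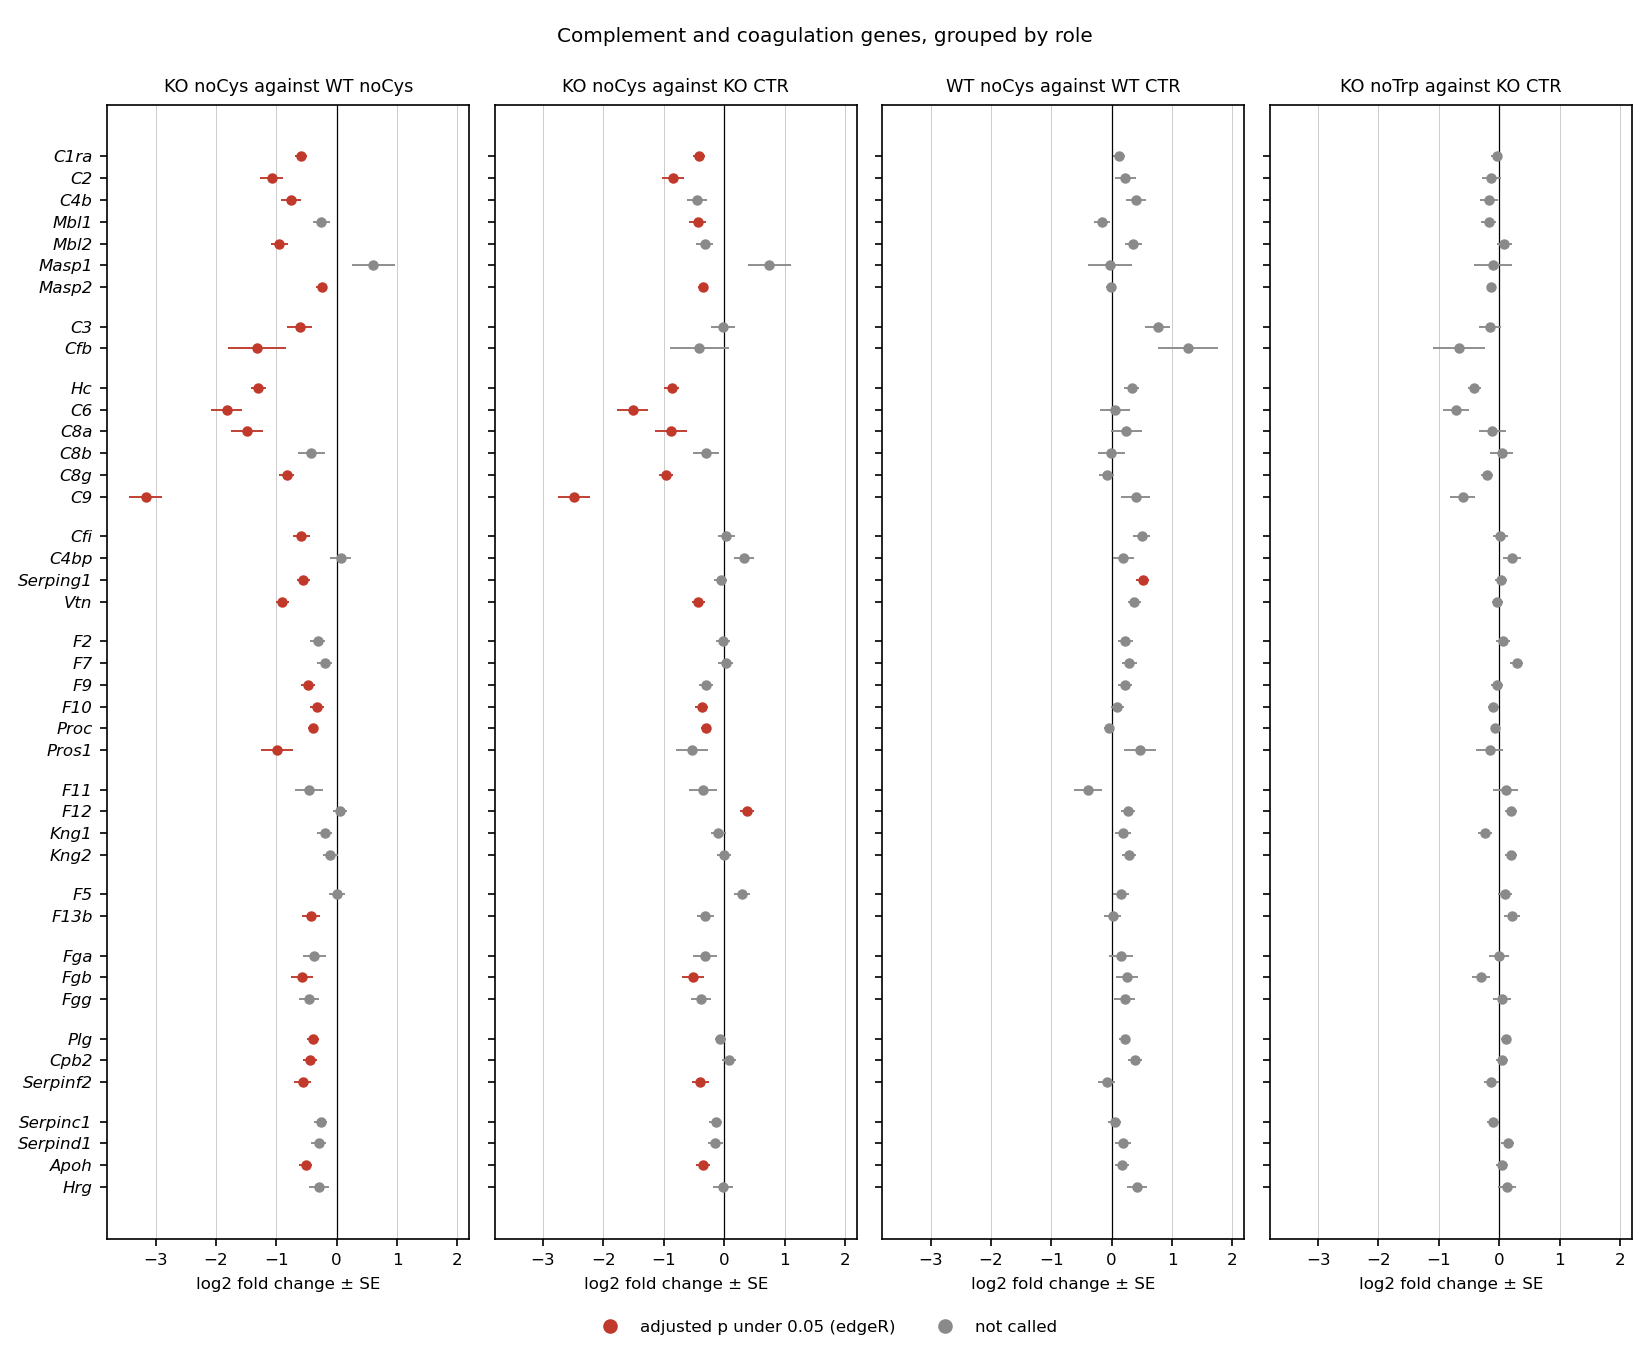
Log2 fold change (x axis, point ± SE) of the 41 genes, grouped by role from top to bottom, in 4 comparisons. Red points had an adjusted p under 0.05: 25 in KO noCys against WT noCys, 16 in KO noCys against KO CTR, 1 in WT noCys against WT CTR and 0 in KO noTrp against KO CTR.

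The same animals were lower than KO mice on the control diet at fewer genes. Against KO CTR, 16 of the 41 were called, 15 lower and *F12* alone higher, with a median of -0.32 against 0.00 over all genes. Of all genes, 20.2% were called, 9.59% lower and 10.6% higher. By both references, 14 genes were called lower: *C1ra*, *C2*, *Masp2*, *Hc*, *C6*, *C8a*, *C8g*, *C9*, *Vtn*, *F10*, *Proc*, *Fgb*, *Serpinf2* and *Apoh*. Another 11 were called lower against WT noCys but not against KO CTR: *C4b*, *Mbl2*, *C3*, *Cfb*, *Cfi*, *Serping1*, *F9*, *Pros1*, *F13b*, *Plg* and *Cpb2*. These 2 comparisons share the 3 KO noCys libraries. Markers called lower against KO CTR were 2 of 7 of hepatocytes (median -0.35), 1 of 4 of endothelium (-0.28), 1 of 4 of stellate cells (-0.37) and 1 of 3 of lymphocytes, with 6 of 13 acute phase genes (-0.90), and their part in the result was not tested. Without KO noCys replicate 3, the count against KO CTR was 7 and the share of all genes 9.65%. With library totals alone in place of TMM the count was also 7, of which 5 were lower, where 22.5% of all genes were called and 5.9% lower. The TMM factors were 0.998 to 1.14 in KO noCys and 0.909 to 0.962 in WT noCys, and leaving them out put the median over all genes at 0.20 in the comparison with WT noCys and at 0.13 in that with KO CTR. With that scaling 16 genes were called against WT noCys, all lower, where 34.3% of all genes were called and 6.84% lower, and the medians of the 41 genes were -0.26 and -0.20.

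Before the terminal genes are taken one by one, the sequences in front of the 4 with the largest falls against WT noCys are given. These 4 were chosen by their falls, so that they fell together follows from the choice. Of the 42 genes, 33 had an entry in the RefSeq promoter table (GRCm38.p6), among them 18 of the 25 genes called lower. Shown are the 250 bases before the RefSeq start site on the gene's own strand, 5′ to 3′, at chr15:6445096-6445345 (plus strand) for *C9*, chr15:4726960-4727209 (plus) for *C6*, chr4:104876399-104876648 (minus) for *C8a* and chr2:35061413-35061662 (minus) for *Hc*. Capitals mark the C/EBP letters TTGCNNAA in *C9*, the STAT letters TTCNNNGAA and the HNF1 letters GTTAAT in *C8a*, and the HNF1 letters on the other strand in *Hc*.
C9: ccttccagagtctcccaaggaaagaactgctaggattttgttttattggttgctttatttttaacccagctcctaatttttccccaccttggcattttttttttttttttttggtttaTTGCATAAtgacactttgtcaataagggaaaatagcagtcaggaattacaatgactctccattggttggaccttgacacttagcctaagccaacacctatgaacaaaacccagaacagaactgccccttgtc
C6: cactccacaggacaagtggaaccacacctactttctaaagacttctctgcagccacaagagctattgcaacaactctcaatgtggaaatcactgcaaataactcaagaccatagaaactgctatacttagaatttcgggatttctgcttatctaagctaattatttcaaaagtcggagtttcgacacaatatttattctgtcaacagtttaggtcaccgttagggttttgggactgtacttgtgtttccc
C8a: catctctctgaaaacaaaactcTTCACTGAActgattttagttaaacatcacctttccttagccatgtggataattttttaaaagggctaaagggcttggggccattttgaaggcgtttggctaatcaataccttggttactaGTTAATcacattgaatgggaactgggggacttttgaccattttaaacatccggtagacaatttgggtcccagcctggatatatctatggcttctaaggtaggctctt
Hc: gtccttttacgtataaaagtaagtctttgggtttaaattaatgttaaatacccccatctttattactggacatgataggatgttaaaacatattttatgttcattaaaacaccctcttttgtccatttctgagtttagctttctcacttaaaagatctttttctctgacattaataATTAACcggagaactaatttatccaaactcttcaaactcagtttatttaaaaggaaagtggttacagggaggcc

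The searched letters were read on both strands of 300 bases around the start site, 250 before and 50 after. The C/EBP letters were in 12 of the 33 promoters and in 10.3% of 20595 RefSeq promoters. The HNF1 letters were in 10 of the 33 and in 6.53% of all, and the STAT letters were in 8 of the 33 and in 8.07% of all. Among the 18 genes called lower, 7 held the STAT letters (*C1ra*, *Masp2*, *C8a*, *Vtn*, *F9*, *Pros1* and *Fgb*), and among the 14 genes tested and not called lower, 1 did (*Fga*). The same split was 6 of 18 and 4 of 14 for the HNF1 letters, 6 of 18 and 5 of 14 for the C/EBP letters and 0 of 18 and 2 of 14 for the antioxidant response letters. No match was found in *C6* for any of the 6 motifs searched. The ATF4-C/EBP composite letters TGATGNAAT and the HNF4 letters CAAAGTCCA were in 0 of the 33, where 0.918% and 0.447% of all promoters held them, and the antioxidant response letters TGACNNNGC were in 3 of the 33 against 13.01% of all. The motifs are short and a match is a description of letters. None of the 3 *C9*, *C6* and *Hc* windows held the STAT letters.

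The terminal complex comprises *Hc*, which encodes C5, *C6*, the α, β and γ chains of C8 (*C8a*, *C8b* and *C8g*) and *C9*, the subunit that polymerizes into the pore. All but *C8b* were called lower in KO noCys against WT noCys and against KO CTR, 5 of 6 in both. All 6 values were below 0 in both, with medians of -1.39 and -0.92.

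*C9* (ENSMUSG00000022149, chromosome 15, 6445327 to 6498751, plus strand) fell most. It was counted at 64.3, 35.5 and 76.6 CPM in the KO noCys livers and at 552, 531, 548 and 469 in WT noCys. On the control diet the values were 257, 239, 380.1 and 442 in KO and 355, 396 and 442 in WT. Without tryptophan they were 164, 200.5, 216, 279.6 and 222 in KO and 168 and 288 in WT. The KO noCys livers were thus below every other liver, and the noTrp groups overlapped with KO CTR. Means were 58.8 ± 21.1 CPM (n = 3) and 525 ± 38.7 (n = 4) for KO and WT without cysteine, 8.94 times lower in KO by the fitted values. The log2 difference was -3.16 (SE 0.27, adjusted p = 1.69e-07) from WT noCys, -2.49 (SE 0.27, adjusted p = 3.52e-06) from KO CTR and -1.88 (SE 0.25, adjusted p = 9.11e-05) from KO noTrp. Per kilobase of exon, *C9* stood 20th of the 41 genes by level in WT noCys and 35th in KO noCys.

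*C6* (ENSMUSG00000022181, chromosome 15, 4727175 to 4814967, plus strand) was nearly the same in the 3 KO noCys livers, 71.3, 71.7 and 70.8 CPM. In WT noCys it was 232, 300.4, 253 and 224, while KO CTR held 151, 141, 267 and 256 and WT CTR 202, 257 and 271. The noTrp libraries held 88.9, 142, 105, 158 and 128 in KO and 75.5 and 162 in WT. KO noCys was again below the 18 other livers, but WT noTrp replicate 1 came close, and the KO CTR livers fell into a lower and a higher pair. The log2 difference was -1.82 (SE 0.26, adjusted p = 4.54e-05) from WT noCys and -1.51 (SE 0.26, adjusted p = 4.01e-04) from KO CTR.

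*Hc* (ENSMUSG00000026874, chromosome 2, 34983331 to 35061438, minus strand) had values of 263, 253 and 258 CPM in KO noCys and 740.4, 595, 665 and 537 in WT noCys. The control diet gave 424, 430.0, 487 and 541 in KO and 464, 529 and 519.9 in WT. Without tryptophan, 404, 283, 349, 383 and 349.6 were found in KO and 371 and 357 in WT. KO noCys was below all other livers, the noTrp livers lay between it and the control diet without overlap, and the WT noCys livers were above all control livers except that replicate 4 was just under KO CTR replicate 4. The mean was 258 ± 4.79 in KO noCys (n = 3) and 634 ± 87.8 in WT noCys (n = 4). *Hc* differed by -1.30 (SE 0.13, adjusted p = 8.98e-07) from WT noCys and by -0.87 (SE 0.13, adjusted p = 9.53e-05) from KO CTR.

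Of the chains of C8, *C8a* (ENSMUSG00000035031, chromosome 4, 104815679 to 104876398, minus strand), the chain that enters the membrane, was at 149, 196 and 225 CPM in KO noCys, 613, 508, 504 and 496 in WT on that diet, 293, 294, 374 and 442 in KO CTR and 432, 438 and 475 in WT CTR. The KO noTrp livers held 260.2, 303, 333, 429.9 and 297 and the WT noTrp livers 158 and 496. KO noCys did not overlap with WT noCys or with either control group, while the WT noTrp pair differed so far from each other that one of them lay within the KO noCys range. *C8a* changed by -1.48 (SE 0.27, adjusted p = 4.31e-04) against WT noCys and by -0.88 (SE 0.26, adjusted p = 0.0218) against KO CTR, and the second call was lost without KO CTR replicate 4 and without KO noCys replicate 1 or 3.

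*C8g* (ENSMUSG00000015083, chromosome 2, 25498651 to 25501719, minus strand), the lipocalin chain, was 304, 287 and 292 CPM in KO noCys and 469, 549, 537 and 538 in WT noCys. It was 653, 552, 555 and 539 in KO CTR, 524, 548 and 593 in WT CTR, 444, 608, 492, 465 and 485 in KO noTrp and 413 and 558 in WT noTrp. The KO noCys livers were below all others by a clear gap, and the other 5 groups overlapped. The change was -0.83 (SE 0.12, adjusted p = 5.27e-05) from WT noCys and -0.97 (SE 0.12, adjusted p = 2.00e-05) from KO CTR. *C8b* (ENSMUSG00000029656, chromosome 4, 104766317 to 104804548, plus strand), the neighbour of *C8a* on chromosome 4 and the chain that first binds C7 and C5b, had 179, 202 and 233 CPM in KO noCys and 276, 333, 239.8 and 249 in WT noCys. These ranges do not overlap but nearly touch, KO CTR at 191 to 314 spanned most of both, and no call was made, with -0.42 (SE 0.22, adjusted p = 0.168) from WT noCys.

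**Figure D2:**
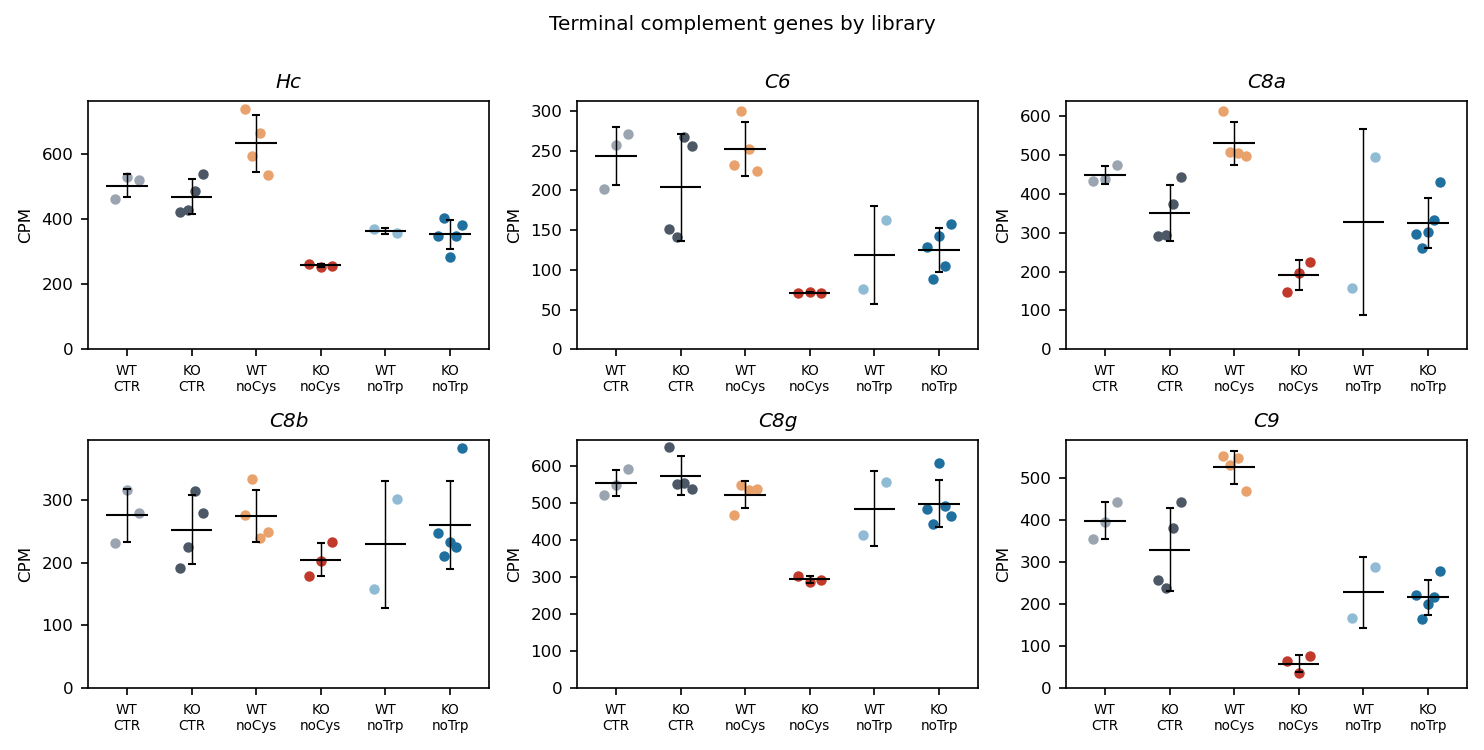
CPM (y axis, from 0) of the 6 terminal complement genes in each of the 21 livers by group (x axis). Points are animals, bars the mean ± SD. For *C9*, *C6*, *Hc* and *C8g* the 3 KO noCys livers are below the 18 others. *C9* in the noTrp groups (164 to 288) is above KO noCys, below WT CTR and WT noCys, and overlaps with KO CTR.

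In the early proteins of the antibody and lectin routes, 5 of 7 were called lower against WT noCys, with a median of -0.59, and 4 of 7 against KO CTR. *C2* (ENSMUSG00000024371, chromosome 17, 34862604 to 34898265, minus strand), the protease of the classical C3-splitting enzyme, had 24.1, 23.5 and 30.5 CPM in KO noCys, 46.3, 56.1, 63.0 and 54.7 in WT on that diet, 54.0, 31.4, 52.0 and 50.8 in KO CTR and 42.7, 43.5 and 54.6 in WT CTR, with 36.4, 50.6, 44.1, 42.5 and 41.2 in KO noTrp and 38.4 and 61.2 in WT noTrp. KO noCys was lowest, although KO CTR replicate 2 was near it. The log2 difference was -1.08 (SE 0.19, adjusted p = 2.97e-04) from WT noCys and -0.85 (SE 0.19, adjusted p = 0.00312) from KO CTR. The exons of *C2* share 46.93% of their length with *Gm20547*, a gene model on the same strand, so that the split of reads between them is uncertain.

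*Mbl2* (ENSMUSG00000024863, chromosome 19, 30232942 to 30239687, plus strand), a mannose-binding lectin, was 259.8, 251 and 231 CPM in KO noCys and 492, 575, 412 and 429 in WT noCys. It was 345, 348, 279.9 and 265 in KO CTR and 341, 400.2 and 373 in WT CTR. The noTrp diet gave 328, 366, 358, 300.0 and 289 in KO and 476 and 360.3 in WT. KO noCys was below all other livers, but 2 KO CTR livers were nearly as low. The difference was -0.95 (SE 0.14, adjusted p = 5.69e-05) from WT noCys and -0.32 (SE 0.14, adjusted p = 0.0982) from KO CTR. *C4b* (ENSMUSG00000073418, chromosome 17, 34728380 to 34743882, minus strand), C4 of the classical enzyme, held 533, 580.4 and 588 CPM in KO noCys, 1196, 943, 796 and 889 in WT on that diet, 712, 657, 787 and 942 in KO CTR and 706, 793 and 678 in WT CTR. The noTrp livers held 921, 539, 689.6, 643 and 654 in KO and 746 and 609 in WT. KO noCys lay below both control groups and WT noCys, but overlapped with KO noTrp, and the difference from WT noCys was -0.75 (SE 0.17, adjusted p = 0.00214). *C4b* has a close copy in *C4a*, which makes its reads uncertain.

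*C1ra* (ENSMUSG00000055172, chromosome 6, 124512405 to 124523443, plus strand), a protease of the C1 complex, varied little elsewhere. Its values were 156, 128 and 148 CPM in KO noCys, 228, 233, 187 and 217 in WT on that diet, 184, 189, 206 and 193 in KO CTR and 202, 221 and 171 in WT CTR, with 182, 182, 189, 191 and 193 in KO noTrp and 193 and 208 in WT noTrp. KO noCys lay below all 18 other livers, with a difference of -0.59 (SE 0.10, adjusted p = 2.71e-04) from WT noCys and -0.42 (SE 0.10, adjusted p = 0.00564) from KO CTR. *Masp2*, the lectin-bound protease that splits C4 and C2, changed by -0.25 (SE 0.08, adjusted p = 0.0334) and -0.35 (SE 0.09, adjusted p = 0.00613), and the first call held in 2 of 7 fits that left out 1 library. Its exons overlap with *Tardbp* on the other strand over 54.94% of their length. *Mbl1* was called lower against KO CTR only (-0.44, SE 0.14, adjusted p = 0.027). *Masp1* was the one member of this group with higher values in KO noCys, 32.3, 28.5 and 24.4 CPM against 25.8, 17.1, 15.5 and 15.6 in WT noCys, and it was not called, at 0.61 (SE 0.35, adjusted p = 0.207).

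On the alternative route, *C3* (ENSMUSG00000024164, chromosome 17, 57203970 to 57228136, minus strand), the protein at which all routes meet, and *Cfb* (ENSMUSG00000090231, chromosome 17, 34856374 to 34862518, minus strand), the protease that joins it, were called lower against WT noCys and not against KO CTR. *C3* stood at 5185, 4380.4 and 4451 CPM in KO noCys, 10032, 6690.2, 7065 and 4832 in WT on that diet, 4214, 5421, 4459 and 4873 in KO CTR and 3788, 4429 and 4452 in WT CTR. Except for WT noCys replicate 4, the WT noCys livers were the highest of the series, and KO noCys lay among the control livers. The log2 difference was -0.61 (SE 0.20, adjusted p = 0.0281) from WT noCys, -0.02 (SE 0.20, adjusted p = 0.958) from KO CTR and, between WT noCys and WT CTR, 0.76 (SE 0.20, adjusted p = 0.0832). Without WT noCys replicate 1 the first was no longer called, and that library also had the highest level of *Saa1*, a serum amyloid of the acute phase, with 4780.1, 1121, 486 and 179.8 CPM in replicates 1 to 4. The part of that library's acute phase level in the result was not tested.

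*Cfb* was at 2.82, 2.05 and 2.64 CPM in KO noCys, 9.69, 5.41, 4.27 and 5.04 in WT on that diet, 1.85, 4.57, 3.46 and 3.02 in KO CTR and 2.01, 3.32 and 2.21 in WT CTR. Without tryptophan it was 3.26, 0.532, 1.18, 3.46 and 1.87 in KO and 6.17 and 1.49 in WT. WT noCys did not overlap with KO noCys, but overlapped with KO CTR, and several noTrp livers were lower than KO noCys. The difference, -1.32 (SE 0.48, adjusted p = 0.0473), was called in 1 of 7 fits that left out 1 library. Of the exons of *Cfb*, 79.5% are shared with *Gm20547*, and its level is uncertain for the same reason.

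Among the regulators of complement, 3 of 4 were called lower against WT noCys, and *C4bp*, the binding protein of C4, was at 0.06 (SE 0.17, adjusted p = 0.804). *Vtn* (ENSMUSG00000017344, chromosome 11, 78499091 to 78502324, plus strand), vitronectin, which holds the terminal complex in solution, was 1992, 1742 and 2007 CPM in KO noCys and 4089, 3739.8, 3253 and 3192 in WT noCys. The control diet gave 2352, 2414, 2533 and 3004 in KO and 2739, 2819.7 and 2685 in WT, and the noTrp diet 2685, 2540.1, 2497, 2455 and 2441 in KO and 2744 and 2873 in WT. KO noCys was below and WT noCys above all other livers. *Vtn* differed by -0.90 (SE 0.11, adjusted p = 9.81e-06) from WT noCys and by -0.43 (SE 0.11, adjusted p = 0.00891) from KO CTR.

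*Serping1* (ENSMUSG00000023224, chromosome 2, 84765387 to 84775444, minus strand) encodes the C1 inhibitor, which also checks the contact system. Its level was 474, 464 and 486 CPM in KO noCys, 798, 699, 662 and 628 in WT on that diet, 459.9, 455, 479.6 and 578 in KO CTR and 467, 533 and 464 in WT CTR, with 578, 463, 472, 504 and 495 in KO noTrp and 470.0 and 502 in WT noTrp. Here the WT noCys livers stood apart, above all 17 others, and KO noCys lay within the control range. The difference from WT noCys was -0.55 (SE 0.11, adjusted p = 9.09e-04), that from KO CTR -0.05 (SE 0.11, adjusted p = 0.772). *Cfi*, the protease that inactivates C3b and C4b, had the same order, at 438, 399 and 404 CPM in KO noCys and 700.4, 646, 555 and 581 in WT noCys, with -0.58 (SE 0.14, adjusted p = 0.00456) from WT noCys and 0.04 (SE 0.14, adjusted p = 0.886) from KO CTR.

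**Figure D3:**
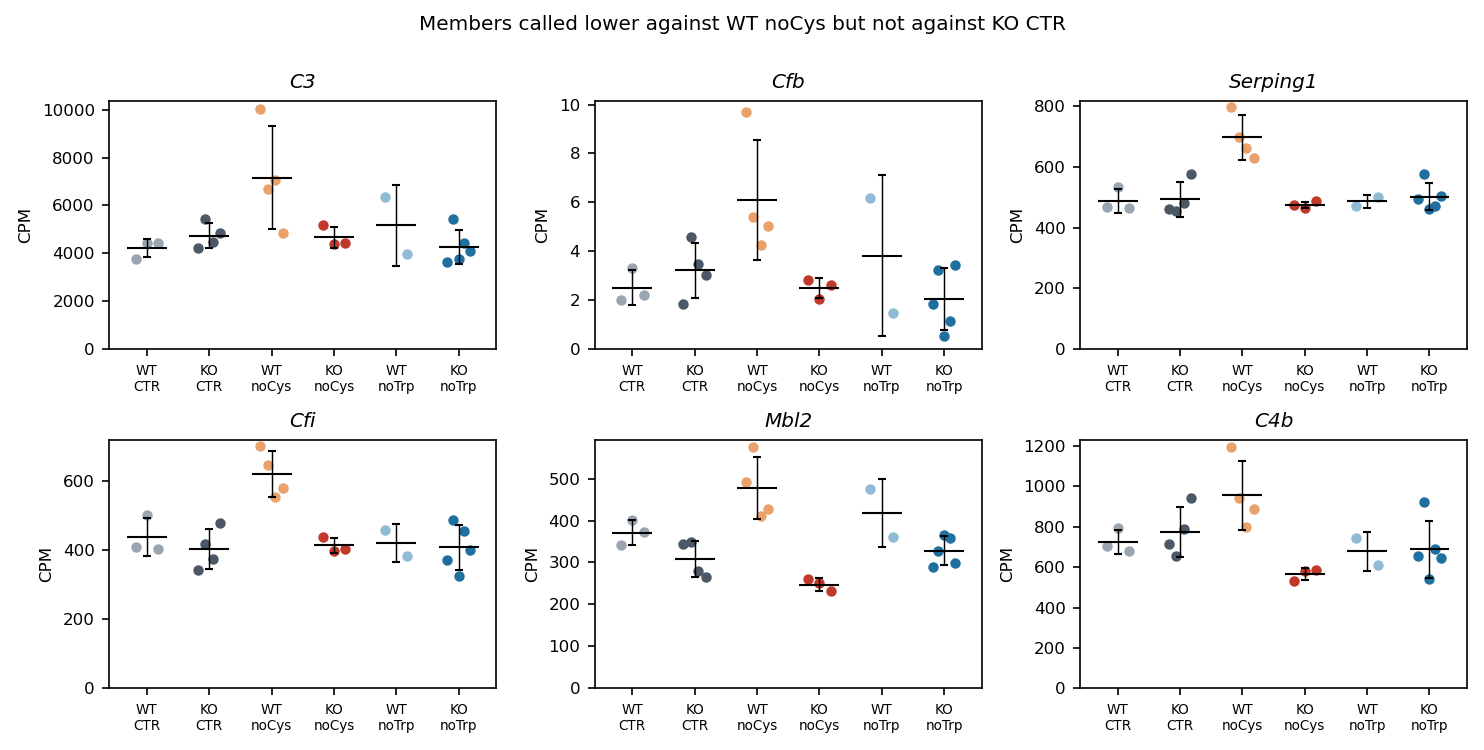
CPM (y axis, from 0) of 6 complement genes that were called lower against WT noCys but not against KO CTR, by group (x axis). Points are animals, bars the mean ± SD. For *Serping1* and *Cfi* the 4 WT noCys livers are above all others. For *C3* and *Cfb* WT noCys replicate 1 is the highest.

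Of the 6 vitamin K dependent genes, 4 were called lower against WT noCys, with a median of -0.36, and 2 against KO CTR. *Pros1* (ENSMUSG00000022912, chromosome 16, 62854307 to 62929346, plus strand), protein S, the cofactor of activated protein C, had the largest value of them. It stood at 72.1, 34.6 and 37.1 CPM in KO noCys, 104, 101, 96.0 and 78.2 in WT on that diet, 54.4, 53.1, 75.7 and 91.8 in KO CTR and 59.0, 79.0 and 66.8 in WT CTR, with 83.7, 68.3, 66.8, 43.7 and 44.7 in KO noTrp and 88.7 and 60.1 in WT noTrp. KO noCys replicate 1 was well above the other 2 and inside the control range, although below WT noCys. The difference of -0.99 (SE 0.26, adjusted p = 0.00837) from WT noCys was not called without KO noCys replicate 3 or 4, and that from KO CTR was -0.53 (SE 0.26, adjusted p = 0.164).

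*Proc* (ENSMUSG00000024386, chromosome 18, 32123126 to 32139570, minus strand), protein C, moved little but evenly, with 612, 534 and 617 CPM in KO noCys, 756, 793, 775 and 774 in WT on that diet, 722, 682, 763 and 733 in KO CTR and 798, 815 and 773 in WT CTR, with 678, 716, 677, 708 and 686 in KO noTrp and 697 and 761 in WT noTrp. Its spread within groups was small and KO noCys was below all other livers. The difference was -0.40 (SE 0.08, adjusted p = 0.00116) from WT noCys and -0.30 (SE 0.08, adjusted p = 0.0123) from KO CTR. *F9*, factor IX, fell against WT noCys (-0.48, SE 0.11, adjusted p = 0.00427), and *F10*, factor X, was called in both comparisons, at -0.32 (SE 0.11, adjusted p = 0.0319) and -0.37 (SE 0.11, adjusted p = 0.0218), the first in 2 of 7 fits without 1 library. Prothrombin, *F2*, was at -0.31 (SE 0.12, adjusted p = 0.0656) and *F7*, the factor that starts coagulation with tissue factor, at -0.19 (SE 0.12, adjusted p = 0.258), neither called.

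The contact proteins, which start coagulation on charged surfaces and release bradykinin, had 0 of 4 calls against WT noCys. *F12* (ENSMUSG00000021492, chromosome 13, 55417958 to 55426793, minus strand) was the 1 gene called higher on the noCys diet in KO, with 629, 652 and 618 CPM in KO noCys and 507, 459, 482 and 495 in KO CTR, a difference of 0.38 (SE 0.11, adjusted p = 0.0212). These groups did not overlap. It was at 663, 563, 548 and 667 in WT noCys against 472, 534 and 505 in WT CTR, groups that did not overlap either, but the WT difference was not called (0.28, SE 0.11, adjusted p = 0.273). *F11*, *Kng1* and *Kng2*, factor XI and 2 kininogens that are copies of each other, were at -0.46, -0.20 and -0.10 against WT noCys.

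The 3 fibrinogen genes, which lie side by side, had log2 differences of -0.37 ± 0.20 (SE) for *Fga*, -0.57 ± 0.18 for *Fgb* and -0.46 ± 0.17 for *Fgg* against WT noCys, of which that of *Fgb* was called (adjusted p = 0.0209). Their levels were 2726 to 3819, 3060.2 to 3923 and 2159 to 3096 CPM in KO noCys and 3675 to 5039, 4697 to 5959.5 and 3256 to 4156 in WT noCys. For *Fgb* and *Fgg* these ranges did not overlap. Of the cofactor and the crosslinking subunit, factor V (*F5*) was not called (0.00 ± 0.13, adjusted p = 1) and *F13b* was called lower (-0.42, SE 0.15, adjusted p = 0.0369), in 2 of 7 fits without 1 library.

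All 3 genes of clot lysis were lower than in WT noCys. *Plg*, plasminogen, changed by -0.39 (SE 0.10, adjusted p = 0.00439), *Cpb2*, which slows lysis, by -0.44 (SE 0.12, adjusted p = 0.00828), and *Serpinf2*, the inhibitor of plasmin, by -0.56 (SE 0.14, adjusted p = 0.0052). Against KO CTR only *Serpinf2* of these was called, at -0.40 (SE 0.14, adjusted p = 0.0488). Of the thrombin inhibitors and other binders, antithrombin (*Serpinc1*, -0.27 ± 0.11), heparin cofactor II (*Serpind1*, -0.30 ± 0.13) and *Hrg*, a histidine-rich binder of heparin and plasminogen (-0.29 ± 0.16), were not called.

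*Apoh* (ENSMUSG00000000049, chromosome 11, 108343354 to 108414396, plus strand), β2-glycoprotein I, which binds anionic phospholipid, was the gene with the highest level per kilobase of exon in WT CTR, 1788 CPM per kilobase, followed by *Fgg* at 1468 and *Vtn* at 1354. It held 2609, 1988 and 2139 CPM in KO noCys, 3347, 3359, 3086 and 3034 in WT on that diet, 2650.4, 3043, 2754 and 3005 in KO CTR and 2806, 3055 and 2686 in WT CTR, with 3253, 2810.3, 2981, 2814 and 2917 in KO noTrp and 3474 and 2813 in WT noTrp. KO noCys was lowest, with replicate 1 just under the lowest KO CTR liver. The differences were -0.51 (SE 0.11, adjusted p = 0.00194) from WT noCys and -0.35 (SE 0.11, adjusted p = 0.031) from KO CTR, and the second was called in 3 of 7 fits that left out 1 library.

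With the control diet, genotype made no difference that could be called in these genes. Between KO CTR and WT CTR 0 of 41 had an adjusted p under 0.05 in edgeR, with values from -0.51 to 0.36 and 1 gene, *F11*, at an unadjusted p under 0.05, where 9.59% of all genes were, and 0.32% of all genes were called, 0.0696% higher and 0.251% lower. DESeq2 and limma also called 0. Without tryptophan, 0 of 41 were called between KO and WT by any of these tools, 2 were at an unadjusted p under 0.05, where 8.91% of all genes were, and 0.195% of all genes were called, 0.0696% higher and 0.125% lower, with only 2 WT animals. For *C9* the genotype difference was -0.27 ± 0.24 (SE) on the control diet and -0.08 ± 0.26 without tryptophan.

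In WT mice the noCys diet went with higher values. Of the 41 genes, 33 were above 0 on the log2 scale, with a median of 0.22 against -0.01 over all genes, and 14 of 41 had an unadjusted p under 0.05, a larger share than the 13.9% of all genes, but *Serping1* alone was called (0.51, SE 0.11, adjusted p = 0.0366), where 0.661% of all genes were, 0.39% higher and 0.271% lower. That call held in 1 of 7 fits that left out 1 library. Groups did not overlap for 17 genes, 16 higher and 1 lower in WT noCys, against 9.15% and 7.24% of all genes. *C3* at 0.76, *Cfi* at 0.50 ± 0.14, *Vtn* at 0.38 ± 0.11 and *Cpb2* at 0.39 ± 0.12 (SE) were among those not called. In the same comparison 12 of 13 acute phase genes were above 0 (median 1.29, 3 called), as were 6 of 7 hepatocyte markers (0.27), all 6 of Kupffer cells and macrophages (0.52) and all 3 of bile duct (0.54), none of these markers called. Their part in the result was not tested.

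Whether the effect of the noCys diet differed between KO and WT was tested directly, as the change from CTR to noCys in KO minus that in WT. It was called for 11 of the 41 genes, all more negative in KO, where 7.44% of all genes were called, 3.88% lower and 3.56% higher. They were *C1ra*, *C2*, *C4b*, *Mbl2*, *Hc*, *C6*, *C8g*, *C9*, *Serping1*, *Vtn* and *Apoh*. Among these 11 genes the differences were largest for *C9* at -2.89 (SE 0.36, adjusted p = 9.12e-05), *C6* at -1.57 (SE 0.35, adjusted p = 0.0111) and *Hc* at -1.20 (SE 0.18, adjusted p = 5.21e-04). The values behind these calls were unlike. *C8g* was at -0.97 in KO and -0.09 in WT, while *Serping1* was at -0.05 in KO and 0.51 in WT. *Hc*, *C8g*, *C9* and *Vtn* were called in every fit tried, and *Apoh* in 2 of 14 that left out 1 library. Without WT noCys replicate 1 and KO noCys replicate 3 together, 4 were called, where 2.05% of all genes were. Without KO noCys replicate 3 alone the count was 5 and the share 3.01%. Here 9 of 13 acute phase genes (median -2.28) and 2 of 7 hepatocyte markers (-0.87, all 7 below 0) were called lower. All 6 markers of Kupffer cells and macrophages (-0.68) and all 4 of endothelium (-0.37) were below 0, none called. Of stellate cell markers 2 of 4 were below 0. The median of the 41 genes was -0.46, and the part of these lists was not tested.

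**Figure D4:**
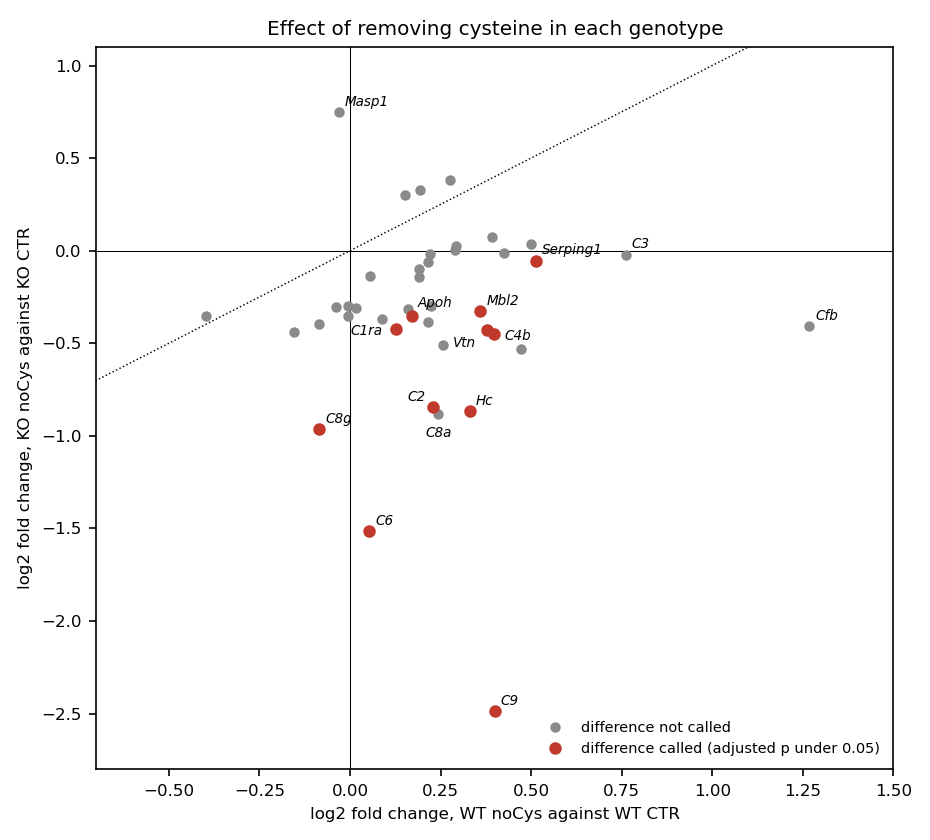
Log2 fold change of noCys against CTR in WT (x axis) and in KO (y axis) for the 41 genes, which share no library between the axes. The dotted line marks equal change, and the 11 red genes had a called difference between genotypes. *C9*, *C6* and *C8g* lie far below the line through their values in KO, and *Serping1* through its value in WT.

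Removing tryptophan gave few calls. In KO mice 0 of 41 genes were called between noTrp and CTR in edgeR, where 1.87% of all genes were, 0.779% higher and 1.09% lower, although DESeq2 and limma each called 2, where they called 4.42% and 4.24% of all genes. An unadjusted p under 0.05 was found for 5 of 41, a smaller share than the 16.9% of all genes. Among the 5 were *Hc* at -0.41 (SE 0.11, adjusted p = 0.0532), *C6* at -0.71 (SE 0.22, adjusted p = 0.0903) and *C9* at -0.61 (SE 0.21, adjusted p = 0.141), all of the terminal complex and all called lower on the noCys diet. In the 2 WT noTrp livers the same 3 were at -0.47 ± 0.15, -1.03 ± 0.30 and -0.80 ± 0.30 (SE), not called. The 1 gene called there was *F7*, with 162 and 175 CPM in WT noTrp and 108, 121 and 102 in WT CTR (0.61, SE 0.15, adjusted p = 0.0292), which held in 1 of 5 fits that left out 1 library, where 3.19% of all genes were called, 1.7% higher and 1.5% lower.

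Between the depleted diets in KO mice, 12 of the 41 genes were called lower without cysteine than without tryptophan and 0 were called higher, with a median of -0.27, where 13.9% of all genes were called, 6.75% lower and 7.17% higher. They were *C1ra*, *C2*, *Mbl2*, *Hc*, *C6*, *C8a*, *C8g*, *C9*, *Vtn*, *Proc*, *F13b* and *Apoh*. *C9* at -1.88 (SE 0.25, adjusted p = 9.11e-05) and *C8g* at -0.76 (SE 0.12, adjusted p = 2.80e-04) were called in every fit tried. Without KO noCys replicate 3 the count was 2 and the share of all genes 3.99%, and without replicate 4 they were 5 and 8.39%. Of the markers of other cell types, 3 of 4 of endothelium were called lower in the same comparison (median -0.66, sums of 74.2 to 75.9 CPM without cysteine and 102 to 131 without tryptophan) and so was 1 of 6 of Kupffer cells and macrophages (median -0.68, all 6 below 0, sums of 95.4 to 112 and 129 to 217). Also called lower were 1 of 7 hepatocyte markers (median -0.26), 1 of 3 lymphocyte markers (-0.40) and 5 of 13 acute phase genes (-1.09). Of the acute phase genes 1 was called higher, and of 4 stellate cell markers 0 were called (0.06). Their part in the result was not tested. The genotype difference itself differed between noCys and noTrp for 7 genes, all more negative without cysteine, where 6.35% of all genes were called, 3.03% lower and 3.32% higher: *Hc*, *C6*, *C8a*, *C8g*, *C9*, *Serping1* and *Vtn*. The values were -3.08 (SE 0.39, adjusted p = 1.21e-04) for *C9*, -1.89 (SE 0.38, adjusted p = 0.00556) for *C6* and -1.26 (SE 0.19, adjusted p = 5.89e-04) for *Hc*, and these 3 were called in every fit tried.

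The sequences of these genes are rich in cysteine, and their cysteine content showed little correlation with the changes. In the longest coding sequence of each of the 42 genes the share of cysteine codons was 3.51% at the median, from 0.815% in *Serpinf2* to 6.96% in *C6*, and 31 were above the median of 2.13% over 21630 protein-coding genes. Across the 41 genes, which share their libraries, the correlation of this share with the log2 fold change of KO noCys against WT noCys was -0.04 by Pearson and 0.07 by Spearman, given as a description. The median share was 3.68% in the 25 genes called there and 3.26% in the 16 not called. Against KO CTR it was 3.74% in the genes called and 3.15% in those not called. The part of cysteine content in the changes was not tested. *C6*, with 65 cysteines in 934 codons, was at -1.82, and *F12*, with 40 in 597, at 0.05. *Hc*, at 1.79%, was at -1.30, and *F5*, at 0.916%, at 0.00.

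**Figure D5:**
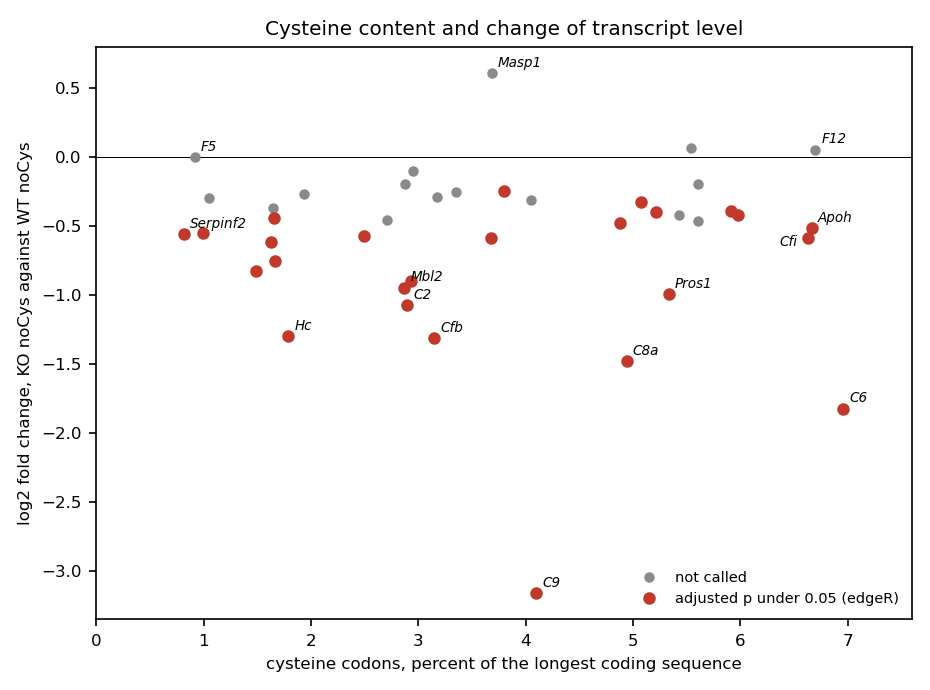
Percent of codons that are cysteine (x axis) and log2 fold change of KO noCys against WT noCys (y axis) for the 41 genes, with the 25 called genes in red. Called and not called genes are found over the whole range of cysteine content, and the correlation is -0.04 by Pearson.

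Other genes of the pathways, listed from general knowledge, moved in part the same way. Of 22 further complement genes tested, 11 were called lower and 0 higher against WT noCys, with a median of -0.61, where 28.2% of all genes were called. They included *C4a* (-2.17 ± 0.48, SE), *Cfp*, properdin (-1.14 ± 0.24), and *Cd59a*, the membrane inhibitor of the pore (-1.19 ± 0.19). *Cfd*, factor D, was also called lower (-3.44 ± 1.01) but was near the floor, with 0, 0.0953 and 0.514 CPM in KO noCys and 6.36, 0.901, 2.18 and 0.202 in WT noCys, groups that overlapped, and it was not called without WT noCys replicate 1 or KO noCys replicate 3. Of 20 further genes of haemostasis, 4 were called lower and 4 higher, where 13.4% of all genes were called lower and 14.8% higher. Among the lower genes were *Fgl1* (-1.62 ± 0.52), not called without WT noCys replicate 1 or KO noCys replicate 3 or 4, *Vkorc1* (-1.28 ± 0.22), the reductase that recycles vitamin K, and *Pzp*. Higher were *Mcfd2* (0.83 ± 0.10) and *Lman1* (0.60 ± 0.12), the receptor pair that carries factors V and VIII out of the endoplasmic reticulum, with *Vkorc1l1* (0.45 ± 0.09) and *Serpina10* (0.34 ± 0.12), the last called in 2 of 7 fits that left out 1 library.

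Other plasma proteins of the liver, a list of 20, had 11 calls against WT noCys, 8 lower and 3 higher, with a median of -0.50 beside the -0.46 of the 41 complement and coagulation genes. Of all genes, 13.4% were called lower and 14.8% higher. Lower were transferrin (*Trf*, -2.03 ± 0.26, SE), *Alb*, *Ttr*, the apolipoprotein *Apoc3* (-1.01 ± 0.18) and *Ambp* (-0.94 ± 0.15), among others, and higher were *Ahsg* (0.57 ± 0.15), *Rbp4*, the carrier of retinol (0.53 ± 0.09), and *Itih2* (0.42 ± 0.12), the last not called without KO noCys replicate 3. Against KO CTR the list had 6 called lower and 4 higher, with a median of -0.04, where 9.59% of all genes were called lower and 10.6% higher.

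Among 14 regulators of hepatocyte transcription and of the acute phase response, 3 were called lower against WT noCys and 0 higher, a share of 21.4% where 28.2% of all genes were called, 13.4% lower. *Cebpb* was at -0.78 ± 0.24 (SE), *Il6ra*, a chain of the interleukin-6 receptor, at -0.89 ± 0.28 and *Nr3c1*, the glucocorticoid receptor, at -0.45 ± 0.11. The first 2 were not called without WT noCys replicate 3 or without KO noCys replicate 3 or 4. Of 13 acute phase genes 10 were called lower and 1 higher, *Apcs*, with a median of -1.16, where 13.4% of all genes were called lower and 14.8% higher. The largest falls were those of the serum amyloids *Saa2* (-7.60), *Saa1* (-5.90 ± 1.28) and *Saa3* (-3.97 ± 0.81) and of *Orm2* (-4.98 ± 0.87) and *Orm1* (-2.42 ± 0.28). Leaving out 1 library left *Saa2* at -5.38, *Saa1* at -4.44, *Saa3* at -2.11 and *Orm2* at -3.67 at the least, each still called. In WT mice *Orm1* (1.29 ± 0.27), *Orm2* (4.17 ± 0.82) and *Itih4* (1.08 ± 0.25) rose on the noCys diet. WT noCys replicate 1 was highest for all 3, with 2666 CPM of *Orm1* where the other WT noCys livers held 929 to 1378, and the calls held in 1, 2 and 0 of 7 fits that left out 1 library. The part of the acute phase genes in the values of the complement genes was not tested. Neutrophil markers summed to 2.70 CPM or less in every library, and those of Kupffer cells and macrophages to 95.4 to 112 in KO noCys and 110.3 to 178 in WT noCys. All 6 of the latter markers were below 0 on the log2 scale against WT noCys (median -0.62), with *Cd5l* called lower, and so were all 4 of endothelium (median -0.62), with *Kdr* and *Pecam1* called lower and sums of 74.2 to 75.9 CPM in KO noCys and 83.2 to 131 in WT noCys, which did not overlap. Of 7 fits that left out 1 library, *Cd5l* was called in 2, *Pecam1* in 4 and *Kdr* in 7. Markers of stellate cells (0 of 4 called, median -0.36) and of bile duct (0 of 3 called, median -0.85) were all below 0 as well. The part of these cell types in the result was not tested.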

How the data were processed

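Poly(A) RNA of 21 mouse livers was sequenced. The authors aligned paired-end reads to GRCm38 with HISAT2 2.1.0 and counted reads in genes with HTSeq 0.11.0, per the submitters' processing notes and the study's methods, and the deposited values are their raw whole-number counts per gene. Which annotation release and which strand setting they counted with is not given in the sources used here. The table had 1 column that belonged to none of the samples, and it was left out. Symbols and coordinates came from GENCODE M21, in which 935 identifiers, with 0.0715% of the counts, were not found. Groups came from the sample titles.

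Tests were run in R 4.3.3 with edgeR 4.0.16. After filterByExpr over the 6 groups (minimum count 10, minimum total 15), which left 14370 genes, libraries were scaled by TMM (factors 0.883 to 1.14) and fitted over all 21 libraries in a one-way quasi-likelihood model. DESeq2 1.42.0, the tool of the study, limma 3.58.1 with voom quality weights, size factors by RLE, library totals alone, no filter, only the groups compared, a replicate block and each library left out were alternatives. The method was tested on simulated counts. Libraries of a group differed by more than counting noise, so that none was a repeat of another. Levels per kilobase used the summed exon length.

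The genes and lists were chosen with earlier results of these data known. Values in every library were given for genes called between KO noCys and WT noCys, the 8 with the largest change per direction, and for genes called in a test of a difference of effects or in at least 3 of 8 comparisons of groups. From other lists, called genes were named, at most 5 per direction, and not all of them are reported here. Genes outside this rule, such as *C3*, *C8b*, *Cfi*, *F7*, *F12* and *Masp1*, were given library values after their results were seen.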

Additional observations from a re-analysis of the deposited data

Results flagged for a closer look

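In 123 sets of libraries, each of 1 of the 41 genes in a group of 4 or 5 animals, 7 had a highest or lowest animal set apart from the others by Dixon's test. Chance flags about 1 in 20 groups. *C2* was at 31.4 CPM in KO CTR replicate 2, with the other 3 animals at 50.8 to 54.0. WT noCys replicate 1 was apart for 3 genes, at 613 CPM for *C8a* (others 496 to 508), at 469 for *C8g* (others 537 to 549) and at 408 for *Cpb2* (others 303 to 314). *C8g* was at 653 CPM in KO CTR replicate 1 (others 539 to 555). *C8b* was at 382 CPM in KO noTrp replicate 4 (others 210.4 to 246), and *Kng1* was at 2483 CPM in KO noTrp replicate 1 (others 1983 to 2074).

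The effect of the noCys diet differed between KO and WT, by the test of that difference in edgeR, for 11 genes. The log2 differences were -2.89 for *C9*, -1.57 for *C6*, -1.20 for *Hc*, -1.08 for *C2*, -0.88 for *C8g*, -0.85 for *C4b*, -0.81 for *Vtn*, -0.68 for *Mbl2*, -0.57 for *Serping1*, -0.55 for *C1ra* and -0.52 for *Apoh*. The KO against WT difference itself differed between the noCys and the noTrp diet for 7 genes, by -3.08 for *C9*, -1.89 for *C6*, -1.47 for *C8a*, -1.26 for *Hc*, -0.87 for *C8g*, -0.74 for *Vtn* and -0.60 for *Serping1*. The second set rests on 2 WT noTrp animals, and without replicate 1 of them *C8a*, *C8g* and *Serping1* were not called.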

How the results depend on the processing

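No called value of a named gene changed sign under any alternative. With library totals alone, 16 genes were called between KO noCys and WT noCys (25 with TMM), 7 between KO noCys and KO CTR (16), 7 between KO noCys and KO noTrp (12), 0 between WT noCys and WT CTR (1), 2 between WT noTrp and WT CTR (1) and 6 for the difference of the noCys effect (11). The shares of all genes called were 34.3%, 22.5%, 13.9%, 0.522%, 3.49% and 8.2% in that order. With DESeq2 the counts were 2 for KO noTrp against KO CTR, 5 for WT noCys against WT CTR, 4 for WT noTrp against WT CTR, 17 for the difference of the noCys effect and 15 for that of the genotype effect (7). In these DESeq2 called 4.42%, 2.25%, 6.87%, 10.2% and 9.3% of all genes, where edgeR called 1.87%, 0.661%, 3.19%, 7.44% and 6.35%. With limma the counts were 2, 5, 0 and 22 for the first 4 of these comparisons, and 19 for KO noCys against KO noTrp. The shares of all genes called by limma were 4.24%, 3.71%, 0.223%, 15.2% and 22.3%. Without a filter the counts were 1, 2 and 2 for the first 3, beside 1.16%, 1.01% and 1.91% of all genes. Fitting only the groups compared gave 0 for WT noTrp against WT CTR, beside 0.0226% of all genes.

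WT noCys replicate 1, which had the highest serum amyloid levels, and KO noCys replicate 3 were left out together, a choice made after seeing the data, as was leaving out 1 library at a time for the genes of the other lists. The counts were then 13 against WT noCys, 6 against KO CTR, 2 against KO noTrp, 0 for WT noCys against WT CTR, 4 for the difference of the noCys effect and 4 for that of the genotype effect. The shares of all genes called were then 13.3%, 9.12%, 3.49%, 0.105%, 2.05% and 2.05%. With all libraries they were 28.2%, 20.2%, 13.9%, 0.661%, 7.44% and 6.35%. Leaving out 1 library at a time gave 18 to 25, 7 to 17, 2 to 14, 0 to 1, 5 to 14 and 4 to 10 in the same order, 0 to 2 for KO noTrp against KO CTR and 0 to 5 for WT noTrp against WT CTR. In these fits 16.5 to 27.1% of all genes were called against WT noCys, 9.65 to 20.8% against KO CTR and 3.99 to 14.8% against KO noTrp. For WT noCys against WT CTR the share was 0.00698 to 0.371%, and for the difference of the noCys effect 3.01 to 9.75%. For KO noTrp against KO CTR it was 0.735 to 3.12%. The lowest counts and shares against KO CTR and KO noTrp were those without KO noCys replicate 3.

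Libraries with the same replicate number did not deviate together (correlations from -0.36 to 0.35), so the numbers were not taken as pairs. With the replicate block 21 genes were called against WT noCys, 12 against KO CTR, 9 against KO noTrp, and 0 in each of the WT comparisons with CTR. The shares of all genes called were 24.4%, 16.5% and 9.06%, and in WT 0.0974% for noCys and 1.33% for noTrp.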
